A study of Homo sapiens with 24 samples.

Results

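RNA methyltransferases transfer the methyl group of S-adenosylmethionine (SAM), which cells make from methionine (Met), to messenger, transfer, ribosomal and other RNAs. The genes described here are those whose symbol in the count table begins with METTL, NSUN or TRMT and a digit, together with the other subunits of the complex that writes N6-methyladenosine (m6A), the m6A demethylases FTO and ALKBH5, TRDMT1, the cap enzymes RNMT, CMTR1 and CMTR2, and FTSJ1 and FTSJ3. METTL16 was left out. The rule used names only, no measured value, and found 64 of the 26645 gene entries. Of these, 9 are listed under symbols that RefSeq has since replaced, among them VIRMA, which the table lists as KIAA1429, METTL7A (now TMT1A) and TRMT12 (now TYW2). Of the 64, 59 had enough counts to be tested, and METTL11B, METTL21C, METTL21EP, METTL24 and METTL7B, with 2 to 11 counts in total over all libraries, did not.

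RNA was sequenced from 24 libraries, 3 in each of 8 groups. MB468 (MDA-MB-468) is a triple-negative breast cancer cell line that depends on Met, and MB468res-R8 (MDA-MB-468res-R8) is 1 clone derived from it by long culture in homocysteine (Hcy), the metabolic precursor of Met, which proliferates in that medium. Each line was collected at 0 h in Met+ medium with 100 µM Met, and at 0.5, 2 and 12 h after a change to Met-Hcy+ medium, in which Met was left out and Hcy added at 370 µM. Dialyzed serum, vitamin B12, glutamine and cysteine were in the medium the lines were maintained in. Cells left in Met+ medium for the same 12 h, or given fresh Met+ medium, were not among the libraries, so Met replacement cannot be told apart from the change of medium or the time in culture, and a difference between the lines cannot be told apart from a feature of this clone. Nothing says that the replicates were separate cultures, so p-values measure the spread between these libraries, which may be technical.

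Gene counts summed to between 11713037 and 36402932 per library, and added spike-in RNAs took 0.201% to 0.303% of all counts. Normalized counts, used below for levels, are counts scaled by each library's TMM effective size to the mean size over the 24 libraries. "Called" means an adjusted p under 0.05 in the quasi-likelihood test of edgeR, adjusted by the Benjamini-Hochberg method over the 14741 genes tested. All log2 fold changes (± SE) and adjusted p-values below are from that test. The epithelial marker EPCAM (286 to 437 CPM, which are counts scaled to a common library total) was high in every library. So were the basal markers KRT5 (1540 to 2783) and EGFR (2102 to 4278), while the basal marker KRT14 was lower (69.8 to 258). PGR, PTPRC, CD3E and COL1A2 were at or below 0.199 CPM, and the endothelial genes PECAM1, VWF and CDH5 at or below 2.70. ERBB2 (38.3 to 97.3 CPM), ESR1 (4.15 to 22.6) and COL1A1 (14.6 to 73.2) were detected at lower levels. In bulk RNA, a change in the share of cells that express a gene and a change in RNA per cell cannot be told apart.

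The m6A writer is a complex in which METTL3 is the catalytic subunit, METTL14 its RNA-binding partner, WTAP the adaptor that holds the complex in nuclear speckles, VIRMA and ZC3H13 scaffold subunits, and RBM15 an RNA-binding subunit that recruits the complex to its targets. FTO and ALKBH5 are iron- and 2-oxoglutarate-dependent oxygenases that remove the methyl group again and use no SAM. RNMT methylates the cap guanosine of messenger RNA, and CMTR1 and CMTR2 methylate the riboses of the nucleotides next to it. Most TRMT and NSUN enzymes and several METTL enzymes act on transfer RNA (tRNA), others act on ribosomal RNA (rRNA), and a number of METTL names belong to enzymes that methylate proteins or small molecules, so the shared name does not mean a shared substrate. By known role the 64 genes comprised 6 writers, 2 demethylases, 3 cap enzymes, 25 tRNA enzymes, 7 genes for rRNA or ribosome methylation, METTL4 (a small nuclear RNA enzyme) and 20 others.

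The sequence upstream of RefSeq's start was available for 52 of the 64 genes, 48 of them tested. Windows of 250 bases were searched on both strands for the E-box CACGTG, for TGATGNAAT, a composite element bound by ATF and C/EBP factors, and for the cAMP element TGACGTCA. No motif contains another. The E-box lay upstream of 2 of the 48 (RBM15 and METTL21A), or 4.17%, and of 6.49% of all 27305 promoters. The composite element lay upstream of 0 of the 48, and of 0.916% of all promoters. The cAMP element lay upstream of 3 (CMTR1, METTL4 and TRMT44), or 6.25%, and of 1.77% of all promoters. A match is a description of letters, and a window without one says nothing about a factor. The sequences below (RefSeq, GRCh38.p14, 5′ to 3′ on the strand of the gene, motifs in capitals) belong to genes that rose over 2-fold in MB468 at 12 h. RBM15 shows its E-box (chr1:110339184-110339213, plus strand, 193 to 164 bases before the start, in an exon of an upstream-starting RBM15 transcript of GENCODE). TRMT44 shows its cAMP element (chr4:8440724-8440776, plus strand, up to the start, in no annotated exon). The rest of the TRMT44 window, which holds 76 exonic bases of ACOX3 on the minus strand, is not printed. GENCODE places the start of TRMT44 further upstream, at 8436140. CMTR2 (chr16:71289723-71289972, minus strand, in no annotated exon) and TRMT61A (chr14:103528946-103529195, plus strand, sharing 127 bases with the divergent noncoding gene TRMT61A-DT) are whole windows without a match.
RBM15: aacactttgggtCACGTGaccgcagagtgc
TRMT44: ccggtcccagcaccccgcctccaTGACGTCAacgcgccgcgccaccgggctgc
CMTR2: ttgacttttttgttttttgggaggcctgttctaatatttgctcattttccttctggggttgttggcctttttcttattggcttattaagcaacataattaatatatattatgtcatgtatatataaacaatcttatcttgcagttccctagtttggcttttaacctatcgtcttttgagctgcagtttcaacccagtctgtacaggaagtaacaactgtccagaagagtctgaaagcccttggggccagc
TRMT61A: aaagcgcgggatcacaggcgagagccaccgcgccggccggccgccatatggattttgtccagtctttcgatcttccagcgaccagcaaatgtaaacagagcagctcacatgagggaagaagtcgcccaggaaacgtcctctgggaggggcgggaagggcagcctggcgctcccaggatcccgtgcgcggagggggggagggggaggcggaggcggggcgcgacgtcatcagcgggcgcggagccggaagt

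At 12 h in Met-Hcy+ medium, more of the 59 genes rose than fell in both lines. In MB468, 37 rose and 6 fell, beside 36.1% and 34.7% of all genes tested, and the median log2 fold change of the 59 was 0.35 where that of all genes was 0.01. In MB468res-R8, 34 rose and 6 fell, beside 30.2% and 31.1% of all genes, with medians of 0.20 and -0.02. Called changes of at least 2-fold were made by 9 of the 59 in MB468, beside 15.9% of all genes, and by 2 in MB468res-R8, beside 9.82%. The 12 h response of MB468res-R8 was lower than that of MB468 for 28 genes and higher for 14, beside 30.3% and 26.2% of all genes, with a median difference of -0.19 where that of all genes was -0.05. The 64 genes together took 0.260% to 0.264% of gene counts in MB468 at 0 h and 0.352% to 0.361% at 12 h. In MB468res-R8 they took 0.238% to 0.245% at 0 h and 0.277% to 0.279% at 12 h.

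At 0.5 and 2 h the counts were close to those of all genes. At 0.5 h, 10 of the 59 rose and 12 fell in MB468, beside 17.6% and 16.4% of all genes. In MB468res-R8, 8 rose and 12 fell, beside 17.4% and 16.3%. At 2 h, 5 rose and 5 fell in MB468, beside 8.88% and 7.47%, and 1 rose and 0 fell in MB468res-R8, beside 2.52% and 1.85%. The response differed between the lines for 0 genes at 0.5 h, beside 1.2% of all genes with a higher and 1.7% with a lower response in MB468res-R8. At 2 h it differed for 4, with 3 higher and 1 lower, beside 2.19% and 2.88%. With library sizes set by the spike-in totals, 1 rose and 13 fell in MB468 at 0.5 h, beside 3.11% and 19.2% of all genes, and 1 rose and 42 fell at 2 h, beside 1.63% and 62.9%. In MB468res-R8 at 0.5 h, 3 rose and 3 fell, beside 8.1% and 5.62%. Before the switch, 8 of the 59 (13.6%) were higher and 18 (30.5%) lower in MB468res-R8 than in MB468, beside 26.4% and 27.1% of all genes.

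**Figure D1:**
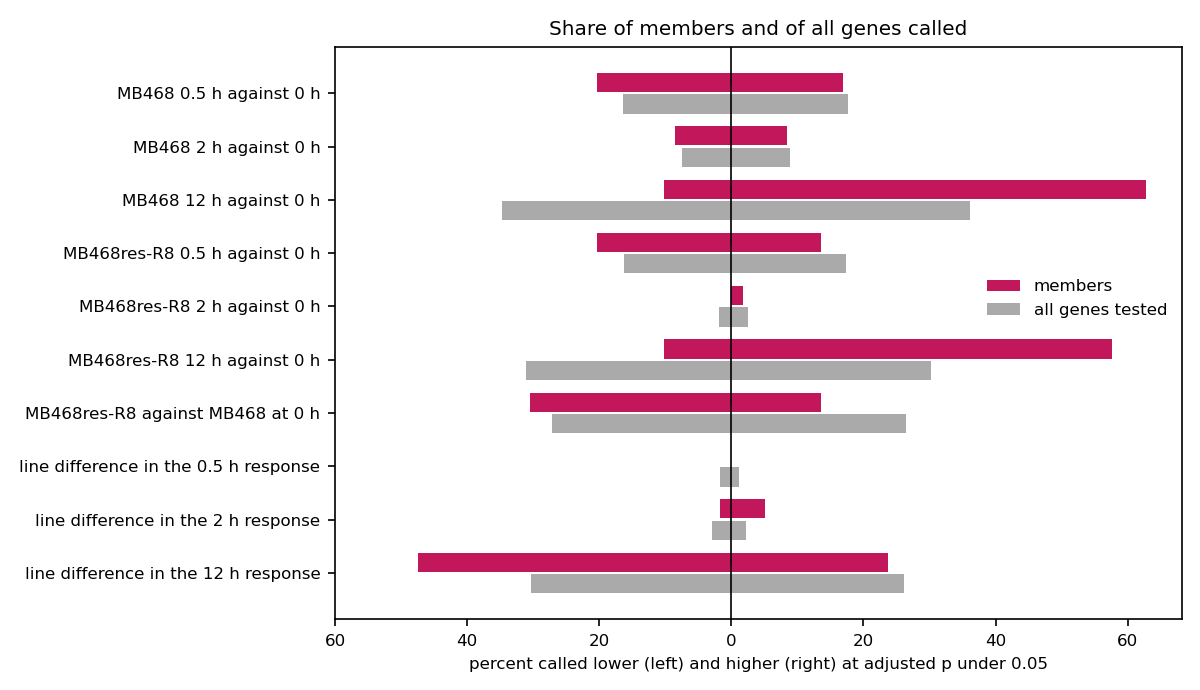
Percent of the 59 tested RNA methyltransferase and demethylase genes (magenta) and of all 14741 genes tested (grey) called lower (bars to the left) and higher (bars to the right) in each of the 10 comparisons. At 12 h the share of these genes called higher was above, and the share called lower below, that of all genes in both lines.

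Scaling to the spike-in totals moved the median of all genes by -0.21, -0.42 and -0.24 on the log2 scale in MB468 at 0.5, 2 and 12 h, and by -0.31 for MB468res-R8 against MB468 at 0 h. The shift in the difference between the lines was 0.26, 0.38 and 0.26 at 0.5, 2 and 12 h. In MB468res-R8 it was 0.044, -0.045 and 0.019. With this scaling 18 of the 59 were called higher and 8 lower in MB468 at 12 h, beside 17.2% and 40.2% of all genes, and 19 and 3 in MB468res-R8, beside 18.8% and 21.2%. For the difference between the lines 14 were higher and 8 lower, beside 27.5% and 11.8%. The median of the 59 stood above that of all genes by 0.35 in MB468 at 12 h under it and by 0.34 with TMM scaling, and by 0.22 in MB468res-R8 under both. Log2 fold changes below are therefore relative to the change of the typical gene.

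Among the writers, RBM15 changed most. RBM15 (chromosome 1, 110338506 to 110346681, GRCh38) had 795, 784 and 833 normalized counts in the 3 MB468 libraries at 0 h, 750, 785 and 760 at 0.5 h, 1386, 1455 and 1318 at 2 h, and 2956, 2875 and 2872 at 12 h. Its MB468res-R8 libraries had 662, 729 and 722 at 0 h, 736, 750 and 797 at 0.5 h, 759, 775 and 665 at 2 h, and 711, 695 and 739 at 12 h. Every MB468 library at 2 h lay above every MB468 library at 0 and 0.5 h, and every one at 12 h above those at 2 h. The MB468res-R8 libraries at 0, 2 and 12 h overlapped. Those at 0.5 h lay above those at 0 h, a change that was not called. The log2 fold change in MB468 was 0.79 ± 0.06 at 2 h (adjusted p = 6.61e-14) and 1.85 ± 0.06 at 12 h (adjusted p = 4.17e-28). In MB468res-R8 it was 0.07 ± 0.06 and 0.03 ± 0.06 at these times. The response in MB468res-R8 was lower than in MB468 by a log2 difference of -0.71 ± 0.08 at 2 h (adjusted p = 4.64e-08) and -1.83 ± 0.08 at 12 h (adjusted p = 1.56e-21). With spike-in scaling the 2 h difference was -0.35 (adjusted p = 0.154).

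WTAP followed a shallower course from a lower start in MB468res-R8. It had 2512, 2584 and 2532 normalized counts in MB468 at 0 h, 2126, 2301 and 2039 at 0.5 h, 2731, 2967 and 3001 at 2 h, and 4624, 4467 and 4493 at 12 h. The MB468res-R8 libraries had 1752, 1604 and 1710 at 0 h, 1519, 1551 and 1590 at 0.5 h, 1690, 1672 and 1709 at 2 h, and 1848, 1917 and 1935 at 12 h. All MB468 libraries lay above all MB468res-R8 libraries. WTAP was lower in MB468res-R8 at 0 h (log2 fold change -0.59 ± 0.05, adjusted p = 2.81e-14). It fell in MB468 at 0.5 h (-0.24 ± 0.05, adjusted p = 5.82e-05) and rose at 12 h (0.83 ± 0.04, adjusted p = 3.87e-20), where the rise in MB468res-R8 was 0.17 ± 0.05 (adjusted p = 0.00192, or 0.237 with spike-in scaling). The difference between these rises was -0.66 ± 0.06 (adjusted p = 9.55e-12), and -0.40 with spike-in scaling (adjusted p = 0.067). The MB468 value at 2 h was 0.19 with TMM and -0.23 with spike-in scaling. About 6.8% of the exonic bases of WTAP lie opposite exons of SOD2, and the library kit did not keep strand.

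METTL3, the catalytic subunit, showed the opposite order of the lines. It had 966, 1009 and 913 normalized counts in MB468 at 0 h and 867, 913 and 885 at 12 h, against 906, 883 and 871 in MB468res-R8 at 0 h and 1171, 1072 and 1183 at 12 h. The 3 MB468res-R8 libraries at 12 h lay above all other libraries of either line at 0 and 12 h. METTL3 rose in MB468res-R8 (0.37 ± 0.06, adjusted p = 1.24e-06), while its value in MB468 was -0.12 ± 0.06 (adjusted p = 0.06), or -0.35 and called (adjusted p = 0.0192) with spike-in scaling, and the responses differed by 0.49 ± 0.08 (adjusted p = 3.58e-06). METTL14, its partner, had 543, 621 and 558 in MB468 at 0 h and 892, 879 and 836 at 12 h, with 637, 590 and 663 and then 668, 688 and 717 in MB468res-R8. The 0 h and 12 h groups did not overlap in either line, and METTL14 rose in MB468 (0.59 ± 0.07, adjusted p = 2.5e-09), with a value of 0.13 ± 0.08 in MB468res-R8 and a difference of -0.46 ± 0.11 (adjusted p = 0.00026, or 0.419 with spike-in scaling at a difference of -0.21).

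The scaffold subunits rose in both lines at 12 h. VIRMA went from 1371, 1421 and 1384 normalized counts to 1714, 1747 and 1672 in MB468 and from 1377, 1489 and 1447 to 1939, 1945 and 1883 in MB468res-R8. ZC3H13 went from 2765, 2845 and 2820 to 3609, 3653 and 3673 in MB468 and from 1836, 1803 and 1888 to 2457, 2579 and 2437 in MB468res-R8. The 0 h and 12 h libraries did not overlap for either gene in either line. The log2 fold changes were 0.30 ± 0.05 and 0.42 ± 0.05 for VIRMA and 0.38 ± 0.04 and 0.44 ± 0.05 for ZC3H13 in MB468 and MB468res-R8, and neither difference between the lines was called. Spike-in scaling left 0.06 for VIRMA and 0.14 for ZC3H13 in MB468, neither called. ZC3H13 was lower in MB468res-R8 at 0 h (-0.61 ± 0.05, adjusted p = 6.4e-15). In all, 5 of the 6 writers rose in MB468 (36.1% of all genes) and 4 of 6 in MB468res-R8 (30.2%). In MB468res-R8, 1 responded more (METTL3) and 3 less (RBM15, WTAP and METTL14), beside 26.2% and 30.3% of all genes. At 0.5 h in MB468res-R8, 3 writers rose and 1 (WTAP) fell, beside 17.4% and 16.3% of all genes. The rises were 0.28 for ZC3H13, 0.19 for VIRMA and 0.18 for METTL3, and none was called with spike-in scaling. No writer was called in that line at 2 h. The METTL3 call was absent without 0.5 h replicate 2 (0.14). VIRMA fell in MB468 at 2 h (-0.16), a call absent without 0 h replicate 2 or 3 or 2 h replicate 1 or 2.

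The demethylases moved in opposite directions in MB468. ALKBH5 had 2304, 2279 and 2205 normalized counts in MB468 at 0 h and 3563, 3567 and 3934 at 12 h, against 2363, 2528 and 2551 and then 2540, 2330 and 2383 in MB468res-R8. The MB468 libraries at 12 h lay above all others, and the MB468res-R8 groups overlapped. ALKBH5 rose in MB468 (0.70 ± 0.05, adjusted p = 4.67e-17), was at -0.03 ± 0.05 in MB468res-R8, and differed by -0.74 ± 0.07 (adjusted p = 1.32e-12). FTO had 3393, 3312 and 3263 in MB468 at 0 h and 2682, 2721 and 2883 at 12 h, and 3032, 3155 and 2899 and then 2147, 2259 and 2211 in MB468res-R8. The 12 h libraries lay below the 0 h libraries in each line. FTO fell by 0.27 ± 0.04 on the log2 scale in MB468 (adjusted p = 4.62e-07) and by 0.46 ± 0.04 in MB468res-R8 (adjusted p = 5.1e-12). The difference of -0.19 ± 0.06 (adjusted p = 0.00621) was not called without MB468 0 h replicate 2 (-0.14), MB468 0 h replicate 3 (-0.14), MB468res-R8 0 h replicate 2 (-0.12) or MB468res-R8 12 h replicate 1 (-0.13), and was 0.07 with spike-in scaling.

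**Figure D2:**
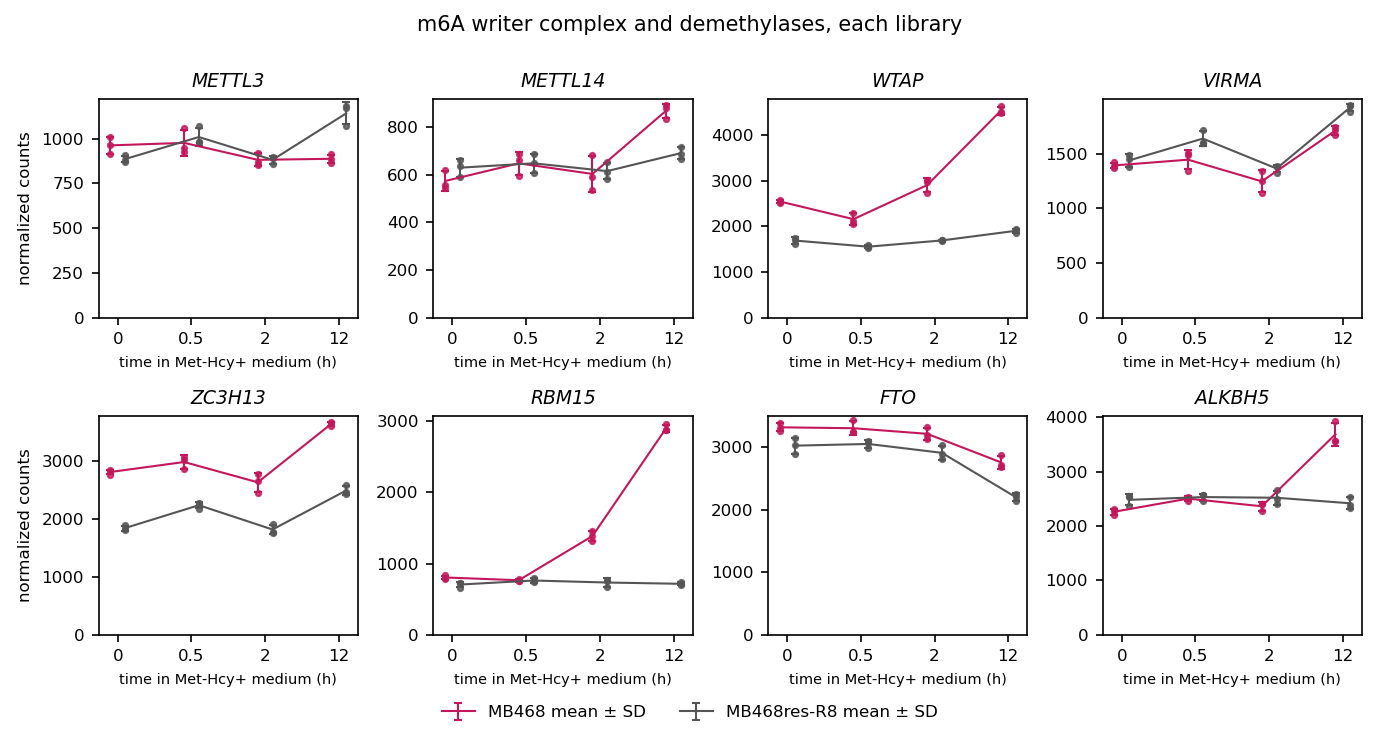
Normalized counts (y axis, from 0) of the 6 m6A writer genes and the demethylases FTO and ALKBH5 in each library (points) with group mean and SD (lines and bars, n = 3) at 0, 0.5, 2 and 12 h (x axis, not to scale) in MB468 (magenta) and MB468res-R8 (grey). RBM15 climbed in MB468 from 804 at 0 h to 1386 at 2 h and 2901 at 12 h and stayed between 704 and 761 in MB468res-R8.

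Genes listed as readers of m6A were followed as a separate list of 10. At 12 h 5 rose and 4 fell in MB468, beside the 36.1% and 34.7% of all genes, and 8 rose and 0 fell in MB468res-R8, beside 30.2% and 31.1%. YTHDF2, which targets m6A-marked messenger RNA for decay, rose by a log2 fold change of 1.39 ± 0.04 in MB468 and 0.35 ± 0.05 in MB468res-R8, and YTHDF1 by 1.19 ± 0.04 and 0.30 ± 0.04. IGF2BP2, which stabilizes its targets, rose by 1.36 ± 0.05 and 0.37 ± 0.06. HNRNPC, a nuclear RNA-binding protein, fell by 0.68 ± 0.04 in MB468 and rose by 0.31 ± 0.04 in MB468res-R8. The responses of YTHDF1, YTHDF2, IGF2BP2 and HNRNPC differed between the lines (adjusted p = 9.48e-16, 2.12e-17, 2.63e-14 and 9.29e-18).

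Of the cap enzymes, CMTR2 was the 1 that changed at least 2-fold. CMTR2 (chromosome 16, 71281389 to 71289715) had 631, 582 and 651 normalized counts in MB468 at 0 h, 571, 622 and 535 at 2 h, and 1776, 1709 and 1496 at 12 h. MB468res-R8 had 463, 437 and 476 at 0 h, 431, 396 and 429 at 2 h, and 555, 605 and 557 at 12 h. The 12 h libraries lay above the 0 h libraries in each line, and MB468 lay above MB468res-R8 at 0 h and at 12 h. The log2 fold change was 1.42 ± 0.07 in MB468 (adjusted p = 1.98e-21) and 0.32 ± 0.07 in MB468res-R8 (adjusted p = 0.000319), a difference of -1.10 ± 0.10 (adjusted p = 2.35e-12).

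CMTR1, which methylates the first transcribed nucleotide, was not called at 12 h in either line. It had 1834, 2018 and 1987 normalized counts in MB468 at 0 h and 1975, 1936 and 1953 at 12 h, and 1508, 1557 and 1553 and then 1515, 1449 and 1404 in MB468res-R8. It was lower in MB468res-R8 at 0 h (-0.34 ± 0.05, adjusted p = 1.1e-07), with 12 h values of 0.01 ± 0.05 (95% interval -0.08 to 0.10) and -0.08 ± 0.05. RNMT fell at 0.5 h in both lines, from 2845, 2974 and 2965 to 2585, 2611 and 2491 in MB468 (-0.19 ± 0.05, adjusted p = 0.001) and from 2910, 2801 and 2913 to 2457, 2523 and 2348 in MB468res-R8 (-0.23 ± 0.05, adjusted p = 6.5e-05). Its 0.5 h and 0 h libraries did not overlap in either line, and with spike-in scaling the MB468res-R8 value was -0.19 (adjusted p = 0.418). In MB468 it then reached 3231, 3445 and 3423 at 2 h, above its 0 h libraries, with a log2 fold change of 0.20 ± 0.05 that was -0.22 with spike-in scaling.

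Among the 25 tRNA enzymes, 2 rose and 6 fell in MB468 at 0.5 h (17.6% and 16.4% of all genes) and 1 rose and 7 fell in MB468res-R8 (17.4% and 16.3%). At 12 h 16 rose and 2 fell in MB468 (36.1% and 34.7%) and 20 rose and 0 fell in MB468res-R8 (30.2% and 31.1%). TRMT61A, the catalytic subunit of the m1A methyltransferase of tRNA, moved both ways. It had 1080, 1050 and 1110 normalized counts in MB468 at 0 h, 683, 640 and 627 at 0.5 h, 1088, 1067 and 1008 at 2 h, and 2649, 2676 and 2747 at 12 h. MB468res-R8 had 870, 873 and 935 at 0 h, 595, 552 and 560 at 0.5 h, 1062, 1052 and 993 at 2 h, and 1679, 1395 and 1519 at 12 h. In both lines the 0.5 h libraries lay below and the 12 h libraries above all others. At 0.5 h it fell by 0.72 ± 0.06 (adjusted p = 1e-12) and 0.64 ± 0.06 (adjusted p = 3.79e-11) on the log2 scale in MB468 and MB468res-R8. At 12 h the rises were 1.32 ± 0.05 (adjusted p = 1.84e-23) and 0.78 ± 0.06 (adjusted p = 3.39e-15), a difference of -0.54 ± 0.08 (adjusted p = 2.14e-07). TRMT6, its partner subunit, fell by 0.37 ± 0.05 and 0.36 ± 0.05 at 0.5 h and rose by 0.35 ± 0.05 and 0.17 ± 0.05 at 12 h.

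METTL1, TRMT10C and NSUN2 also fell at 0.5 h in both lines. METTL1, the tRNA m7G methyltransferase, went from 467, 545 and 464 normalized counts to 293, 302 and 321 in MB468 and from 477, 407 and 469 to 316, 292 and 307 in MB468res-R8. The groups did not overlap, and the log2 fold changes were -0.70 ± 0.09 (adjusted p = 7.12e-08) and -0.56 ± 0.09 (adjusted p = 4.89e-06). TRMT10C, a subunit of mitochondrial RNase P, changed by -0.49 ± 0.07 and -0.45 ± 0.07, and NSUN2, which writes 5-methylcytosine on tRNA, by -0.35 ± 0.04 and -0.26 ± 0.04. TRMT1L, a paralog of the guanosine dimethyltransferase TRMT1, went the other way. It had 263, 273 and 278 normalized counts in MB468 at 0 h, 503, 498 and 489 at 0.5 h, 312, 272 and 336 at 2 h, and 501, 557 and 509 at 12 h. In MB468res-R8 it had 431, 433 and 467, then 663, 668 and 682, then 474, 445 and 457, then 652, 638 and 767. The 0.5 h and 12 h libraries lay above those of 0 h and 2 h in each line, and MB468res-R8 lay above MB468 at each time. It was higher in MB468res-R8 at 0 h (0.71 ± 0.08, adjusted p = 7.69e-10) and rose at 0.5 h by 0.88 ± 0.08 in MB468 (adjusted p = 8.48e-12) and 0.60 ± 0.07 in MB468res-R8 (adjusted p = 1.32e-08).

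Of the 59 genes, 10 were called lower at 0.5 h in both lines, 83.3% of the 12 of MB468 and 83.3% of the 12 of MB468res-R8, beside 66.7% and 66.8% of all genes called lower in each line. They were METTL1, METTL18, NSUN2, NSUN5, RNMT, TRMT1, TRMT10C, TRMT6, TRMT61A and WTAP. The 5 called higher in both were METTL15, METTL4, METTL7A, NSUN7 and TRMT1L, 50% of the 10 of MB468 and 62.5% of the 8 of MB468res-R8, beside 71.3% and 72.1% of all genes called higher. METTL13 and METTL25 were called lower in MB468 and not in MB468res-R8, and NSUN5P1 and TRMT44 the reverse, and the difference between the lines was not called for any of these 4 genes. The lines have separate 0 h libraries. Several of the smaller calls were lost when 1 library was left out. METTL15 (mitochondrial rRNA) was not called in MB468 without 0 h replicate 1 (0.29, from 0.42) or in MB468res-R8 without 0 h replicate 1 (0.31, from 0.36), and METTL18 in MB468res-R8 was not called without 0.5 h replicate 1 (-0.30, from -0.47). WTAP in MB468res-R8 (-0.12) was not called without 0 h replicate 1 (-0.09), 0 h replicate 3 (-0.11), 0.5 h replicate 1 (-0.11) or 0.5 h replicate 2 (-0.12). METTL20, listed at 9.72 to 43.4 normalized counts over all libraries, rose in MB468 by 0.77 ± 0.30 (adjusted p = 0.0466), a call absent without any of the 0 h libraries (0.67 to 0.84) or 0.5 h replicates 1 (0.70) or 3 (0.63).

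TRMT44, which methylates a ribose in the variable loop of serine tRNA, rose at 12 h in MB468. TRMT44 (chromosome 4, 8436140 to 8493531) had 246, 278 and 235 normalized counts in MB468 at 0 h, 208, 250 and 214 at 0.5 h, 222, 229 and 227 at 2 h, and 674, 699 and 666 at 12 h. In the MB468res-R8 libraries it had 230, 265 and 248 at 0 h and 221, 223 and 197 at 12 h. The MB468 12 h libraries lay above all others, and those of MB468res-R8 lay below their own 0 h libraries. The log2 fold change was 1.42 ± 0.09 in MB468 (adjusted p = 3.8e-18) and -0.21 ± 0.09 in MB468res-R8 (adjusted p = 0.0524), a difference of -1.63 ± 0.13 (adjusted p = 3.78e-14). METTL6, a 3-methylcytosine enzyme for serine tRNA, rose by 1.05 ± 0.08 and 0.26 ± 0.08, a difference of -0.80 ± 0.12 (adjusted p = 1.75e-07).

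Some tRNA enzymes rose at 12 h in MB468res-R8 and were not called in MB468. Of the 25, the 12 h response was higher in MB468res-R8 for 7 and lower for 10, beside 26.2% and 30.3% of all genes. NSUN2, whose counts were the highest of the 64 genes, had 7232, 7131 and 7095 normalized counts in MB468 at 0 h and 7478, 7548 and 7232 at 12 h, against 6463, 6169 and 6555 and then 9837, 9661 and 9854 in MB468res-R8. The 3 MB468res-R8 libraries at 12 h lay above all others. The log2 fold change was 0.05 ± 0.04 in MB468, and 0.61 ± 0.04 for MB468res-R8 (adjusted p = 3.75e-17), a difference of 0.56 ± 0.05 (adjusted p = 1.17e-11). METTL8, a mitochondrial 3-methylcytosine enzyme, had 702, 720 and 637 and then 695, 713 and 637 in MB468, against 658, 628 and 629 and then 1178, 1183 and 1073 in MB468res-R8. Its MB468 groups overlapped and its MB468res-R8 groups did not, with log2 fold changes of -0.02 ± 0.07 and 0.84 ± 0.07 (adjusted p = 4.35e-13) and a difference of 0.86 ± 0.10 (adjusted p = 2.38e-09). TRDMT1, which methylates cytosine in the anticodon loop, was at -0.09 ± 0.13 and 0.57 ± 0.13, and METTL1 at 0.05 ± 0.09 and 0.50 ± 0.09, with differences of 0.65 ± 0.18 (adjusted p = 0.00226) and 0.45 ± 0.12 (adjusted p = 0.00171).

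TRMT12, an enzyme of wybutosine synthesis in phenylalanine tRNA, went in opposite directions in the lines. It had 457, 446 and 413 normalized counts in MB468 at 0 h, 397, 416 and 396 at 0.5 h, 239, 270 and 268 at 2 h, and 252, 304 and 310.5 at 12 h. Its counts in MB468res-R8 were 391, 370 and 434 at 0 h, 391, 363 and 414 at 0.5 h, 381, 374 and 394 at 2 h, and 494, 478 and 497 at 12 h. The MB468 libraries at 2 and 12 h lay below those at 0 and 0.5 h, and the MB468res-R8 libraries at 12 h above all of that line's others. The log2 fold changes at 12 h were -0.61 ± 0.08 (adjusted p = 1.69e-08) and 0.30 ± 0.08 (adjusted p = 0.00154, or 0.0806 with spike-in scaling), and the response differed by 0.71 ± 0.12 at 2 h (adjusted p = 8.86e-05) and 0.91 ± 0.12 at 12 h (adjusted p = 9.11e-09). TRMT2B, a mitochondrial 5-methyluridine enzyme, fell by 0.53 ± 0.07 in MB468 and was at 0.13 ± 0.07 in MB468res-R8, a difference of 0.66 ± 0.10 (adjusted p = 8.02e-07).

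**Figure D3:**
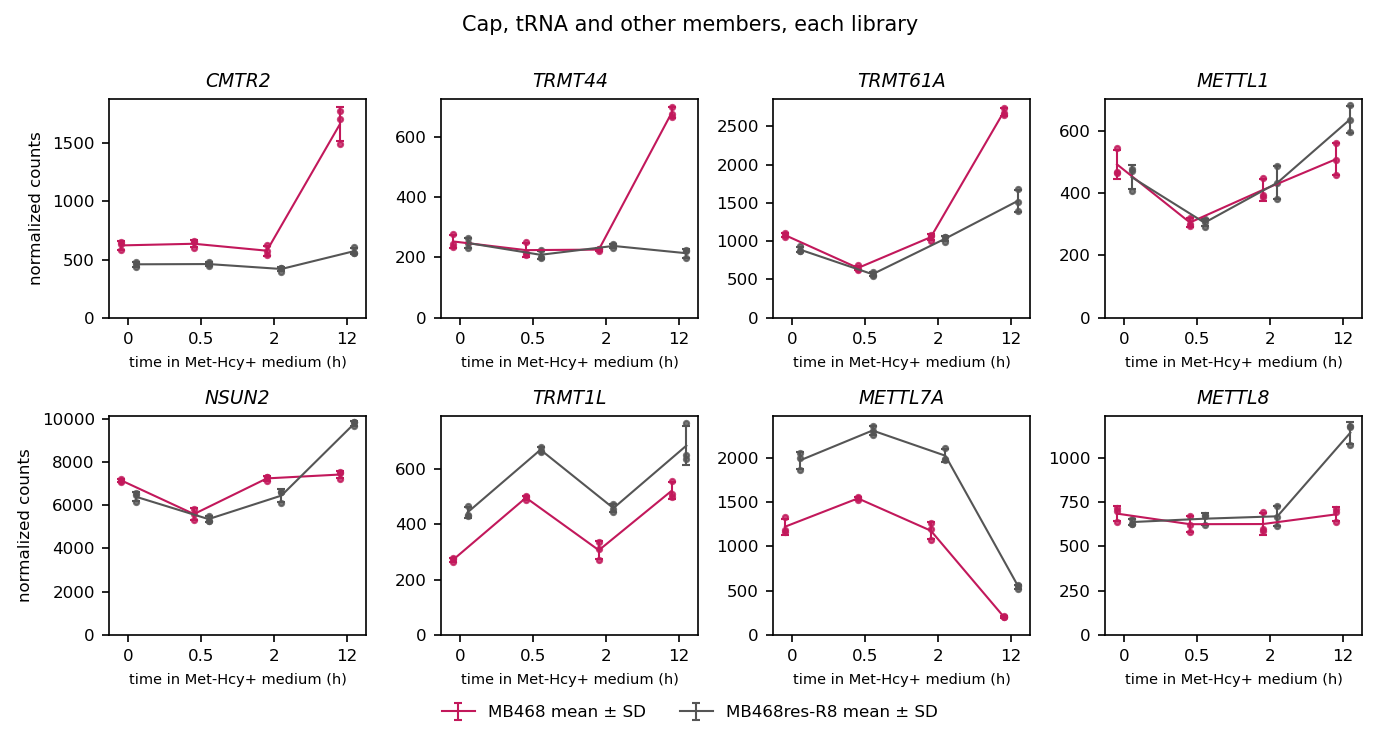
Normalized counts (y axis, from 0) of CMTR2, the tRNA enzymes TRMT44, TRMT61A, METTL1, NSUN2, TRMT1L and METTL8, and METTL7A. Points are libraries, and lines and bars are group mean and SD (n = 3) at 0, 0.5, 2 and 12 h (x axis, not to scale). MB468 is magenta and MB468res-R8 grey. TRMT61A and METTL1 dipped and TRMT1L peaked at 0.5 h in both lines, and CMTR2 and TRMT44 reached 1660 and 680 in MB468 at 12 h against 572 and 214 in MB468res-R8.

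Of the 7 genes for rRNA and ribosome methylation, 5 rose and 0 fell in MB468 at 12 h (36.1% and 34.7% of all genes), and 4 rose and 1 fell in MB468res-R8 (30.2% and 31.1%). FTSJ3, which methylates ribosomal RNA precursors, had 2257, 2329 and 2163 normalized counts in MB468 at 0 h and 2445, 2581 and 2537 at 12 h, and 2275, 2179 and 2147 and then 3498, 3263 and 3378 in MB468res-R8. It rose in both lines without overlap, by 0.16 ± 0.04 (adjusted p = 0.000978) and 0.62 ± 0.04 (adjusted p = 7.55e-16), a difference of 0.46 ± 0.06 (adjusted p = 2.29e-08). METTL5, an m6A enzyme for 18S rRNA, was at 0.03 ± 0.07 and 0.46 ± 0.07, a difference of 0.43 ± 0.10 (adjusted p = 0.000432). TRMT112, an obligate activator of several methyltransferases that include METTL5, had 2024, 2170 and 2067 and then 2327, 2291 and 2332 in MB468, and 2090, 1920 and 1914 and then 1803, 1787 and 1879 in MB468res-R8, where the groups did not overlap in either line. The log2 fold changes of 0.15 ± 0.04 and -0.12 ± 0.05 were called, but not without MB468 0 h replicate 1 (0.10) or without MB468res-R8 0 h replicate 1 (-0.05) or 12 h replicates 1 (-0.09) or 2 (-0.08). With spike-in scaling they were -0.08 and -0.09, neither called. About 25.8% of the exonic bases of TRMT112 lie opposite exons of ESRRA.

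METTL4, which methylates adenosine in U2 small nuclear RNA, was lower in MB468res-R8 at 0 h. It had 1106, 1186 and 1261 normalized counts in MB468 and 728, 723 and 871 in MB468res-R8, without overlap (-0.62 ± 0.07, adjusted p = 2.22e-09). It rose by 0.34 ± 0.07 and 0.27 ± 0.07 at 12 h, with no call for the difference.

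Among the 20 remaining names, 15 were tested, and at 12 h 8 rose and 3 fell in MB468 (36.1% and 34.7% of all genes) and 4 rose and 3 fell in MB468res-R8 (30.2% and 31.1%). METTL7A, a thiol methyltransferase of the endoplasmic reticulum and lipid droplets, had the strongest fall of the 59 in both lines. METTL7A (chromosome 12, 50923472 to 50932510) had 1181, 1162 and 1328 normalized counts in MB468 at 0 h, 1565, 1546 and 1524 at 0.5 h, 1261, 1076 and 1198 at 2 h, and 195, 201 and 214 at 12 h. Its counts in MB468res-R8 were 1998, 2055 and 1867, then 2308, 2265 and 2368, then 1975.6, 2113 and 1995, then 557, 518 and 559. In each line the 12 h libraries lay far below all others, and MB468res-R8 lay above MB468 at every time. It was higher in MB468res-R8 at 0 h (0.70 ± 0.05, adjusted p = 2.43e-14) and fell at 12 h by 2.58 ± 0.07 on the log2 scale in MB468 (adjusted p = 3.43e-30) and 1.86 ± 0.06 in MB468res-R8 (adjusted p = 1.58e-26). The fall was smaller in MB468res-R8, by 0.73 ± 0.09 (adjusted p = 5.48e-09). About 18.9% of its exonic bases are shared with an overlapping annotated gene on the same strand.

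METTL18 and METTL21B were among the 5 strongest rises in MB468 at 12 h, and METTL13 was added after its values were seen. METTL18, the histidine methyltransferase of a ribosomal protein, had 190, 212 and 163 normalized counts in MB468 at 0 h and 561, 496 and 480 at 12 h, against 193, 192 and 187 and then 167, 192 and 191 in MB468res-R8. METTL21B, a lysine methyltransferase of elongation factor eEF1A, had 110, 132 and 139 and then 384, 335 and 346, against 160.2, 117 and 144 and then 151, 167 and 162. METTL13, another eEF1A methyltransferase, had 1963, 1969 and 1834 and then 4110, 3886 and 3975, against 1925, 1910 and 1982 and then 2486, 2393 and 2374. The MB468 groups did not overlap for any of these, and the MB468res-R8 groups overlapped for METTL18 and METTL21B but not for METTL13. The log2 fold changes in MB468 were 1.43 ± 0.11, 1.49 ± 0.12 and 1.05 ± 0.04, METTL13 also rose in MB468res-R8 (0.32), and the differences between the lines were -1.49 ± 0.17 (adjusted p = 5.07e-10), -1.31 ± 0.18 (adjusted p = 3.41e-08) and -0.73 ± 0.06 (adjusted p = 5.85e-14).

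METTL12, the mitochondrial lysine methyltransferase of citrate synthase, had low counts and opposite responses. METTL12 (chromosome 11, 62665309 to 62668496) had 76.3, 85.3 and 66.0 normalized counts in MB468 at 0 h, 61.7, 70.4 and 57.7 at 0.5 h, 16.1, 25.3 and 31.3 at 2 h, and 44.6, 49.6 and 48.2 at 12 h. In MB468res-R8 it had 53.1, 44.7 and 37.9 at 0 h, 66.3, 41.1 and 39.3 at 0.5 h, 40.5, 37.5 and 40.7 at 2 h, and 90.3, 118 and 117 at 12 h. The MB468 libraries at 2 h were the lowest of all 24, and the MB468res-R8 libraries at 12 h the highest. METTL12 was lower in MB468res-R8 at 0 h (-0.74 ± 0.20, adjusted p = 0.00238). In MB468 it changed by -1.65 ± 0.24 at 2 h (adjusted p = 1.08e-06) and -0.69 ± 0.20 at 12 h (adjusted p = 0.00193), in MB468res-R8 by 1.24 ± 0.20 at 12 h (adjusted p = 1.06e-06), and the responses differed by 1.43 ± 0.33 at 2 h (adjusted p = 0.00382) and 1.93 ± 0.28 at 12 h (adjusted p = 1.64e-07). An exon of METTL12 holds the small nucleolar RNA SNORA57 (4.7% of its exonic bases), and 16.7% lie opposite LBHD1, so reads of these cannot be told apart.

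Smaller changes that were among the strongest of their comparison often lost the call when 1 library was left out. At 2 h in MB468, METTL5 rose by 0.23 ± 0.08 and METTL6 by 0.26 ± 0.09 with TMM, but both were below 0 with spike-in scaling (-0.19 and -0.17). METTL5 was not called without MB468 0 h replicate 1 or 3 or 2 h replicate 1 or 3 (0.17 to 0.24), nor METTL6 without any 0 h library or 2 h replicate 1 or 3 (0.21 to 0.26). TRMT10C fell by 0.35 ± 0.07 there (adjusted p = 0.00033). The 1 call in MB468res-R8 at 2 h, TRMT61A (0.22 ± 0.06, adjusted p = 0.0174), was absent without 0 h replicate 1 or 2 or 2 h replicate 1 or 2 (0.20 to 0.21) and with spike-in scaling. METTL25 fell in MB468 at 12 h, from 93.3, 119 and 92.7 normalized counts to 59.3, 62.6 and 73.5 (-0.65 ± 0.16, adjusted p = 0.000351), and differed between the lines by 0.67 ± 0.22 (adjusted p = 0.00869). In MB468res-R8 at 12 h METTL23 fell by 0.35 ± 0.08 on the log2 scale, the pseudogene NSUN5P1 by 0.40 ± 0.11, and RNMT by 0.12 ± 0.05. The NSUN5P1 call was absent without 12 h replicate 3 (-0.28), and the RNMT call without 0 h replicate 1 or 3 or 12 h replicate 1 or 3 (-0.11 to -0.07). METTL23 (adjusted p = 0.0504) and RNMT (adjusted p = 0.584) were not called with spike-in scaling.

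**Figure D4:**
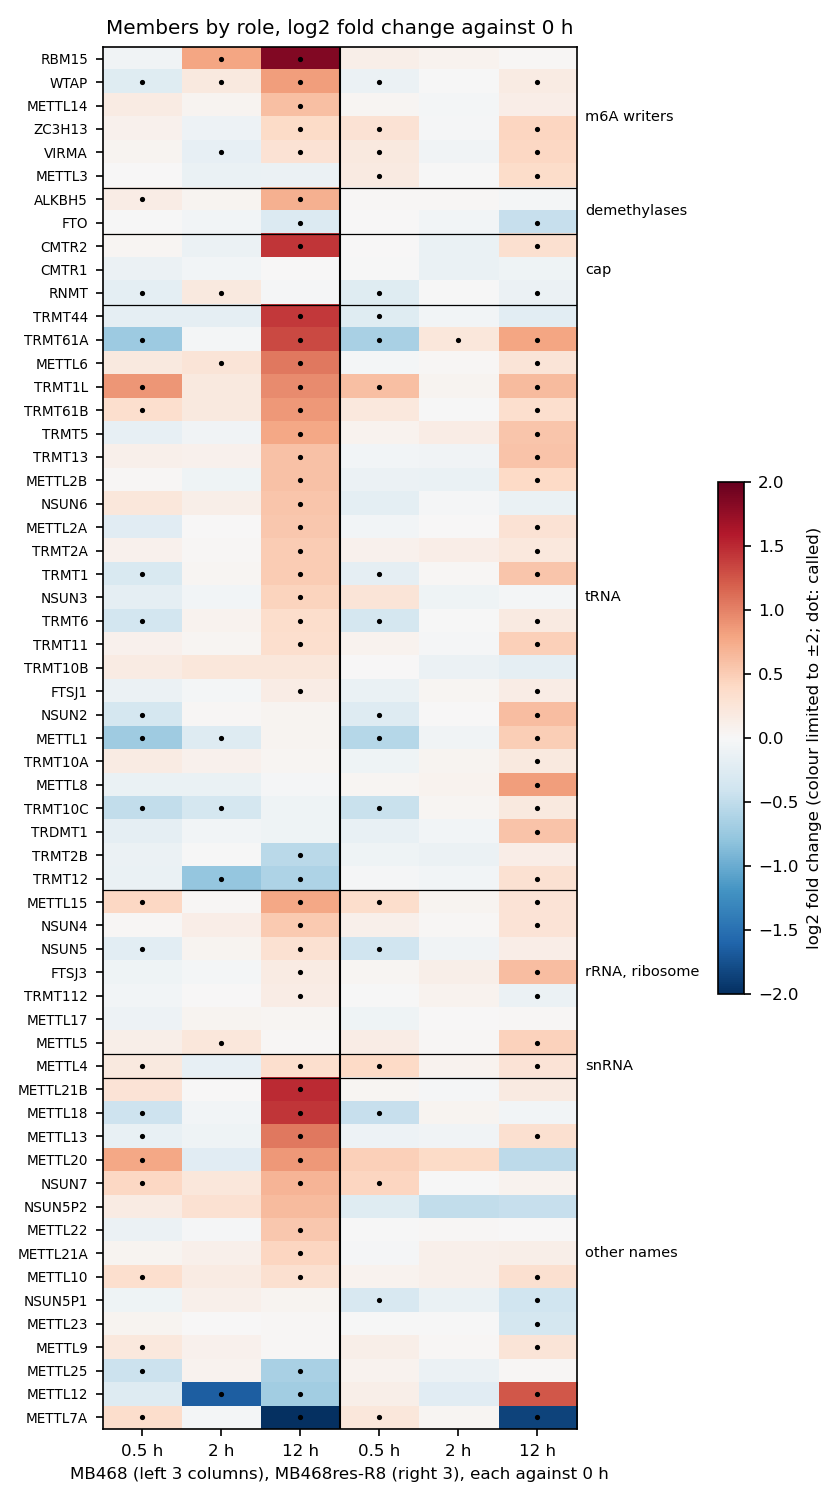
Log2 fold change against 0 h of the 59 tested genes (rows, by role and then by the MB468 value at 12 h) at 0.5, 2 and 12 h in MB468 (left 3 columns) and MB468res-R8 (right 3 columns), with colour limited to ±2 and a dot where the change was called. The 12 h columns hold 37 genes called higher in MB468 and 34 in MB468res-R8, and METTL7A is the deepest fall in both.

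Set side by side at 12 h, 23 of the 59 genes (39%, beside 18% of all genes) rose in both lines, and for 11 of these the rise was smaller in MB468res-R8, for 1 (FTSJ3) larger, and for 11 the difference was not called. Another 13 (22%, beside 12.5% of all genes) rose in MB468 with no call in MB468res-R8. The response was lower in MB468res-R8 for 12 of these (ALKBH5, METTL14, METTL18, METTL20, METTL21A, METTL21B, METTL22, NSUN3, NSUN6, NSUN7, RBM15 and TRMT44), and the difference was not called for NSUN5. Conversely, 9 (15.3%, beside 6.18% of all genes) rose in MB468res-R8 with no call in MB468, and the response was higher in MB468res-R8 for 8 of these (METTL1, METTL3, METTL5, METTL8, METTL9, NSUN2, TRDMT1 and TRMT10C). Over all genes tested, 30.3% had a lower and 26.2% a higher response in MB468res-R8, and shares within these classes were not counted. Genes called in 1 line only were picked by unequal calls, which favours a called difference in that direction. FTO and METTL7A fell in both lines (3.39%, beside 18.1% of all genes). METTL12 and TRMT12 fell in MB468 and rose in MB468res-R8 (3.39%, beside 5.99%), and TRMT112 was called the other way (1.69%, beside 5.58%). No call was made in either line for CMTR1, METTL17, NSUN5P2 and TRMT10B (6.78%, beside 15.6% of all genes). The difference between the lines was called for TRMT10B (-0.41, adjusted p = 0.0212). Reads of the pseudogenes NSUN5P1 and NSUN5P2 and of NSUN5 may be split among them, since 25.5%, 32.7% and 21.2% of the 100-base windows in their transcripts also occur in another gene.

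**Figure D5:**
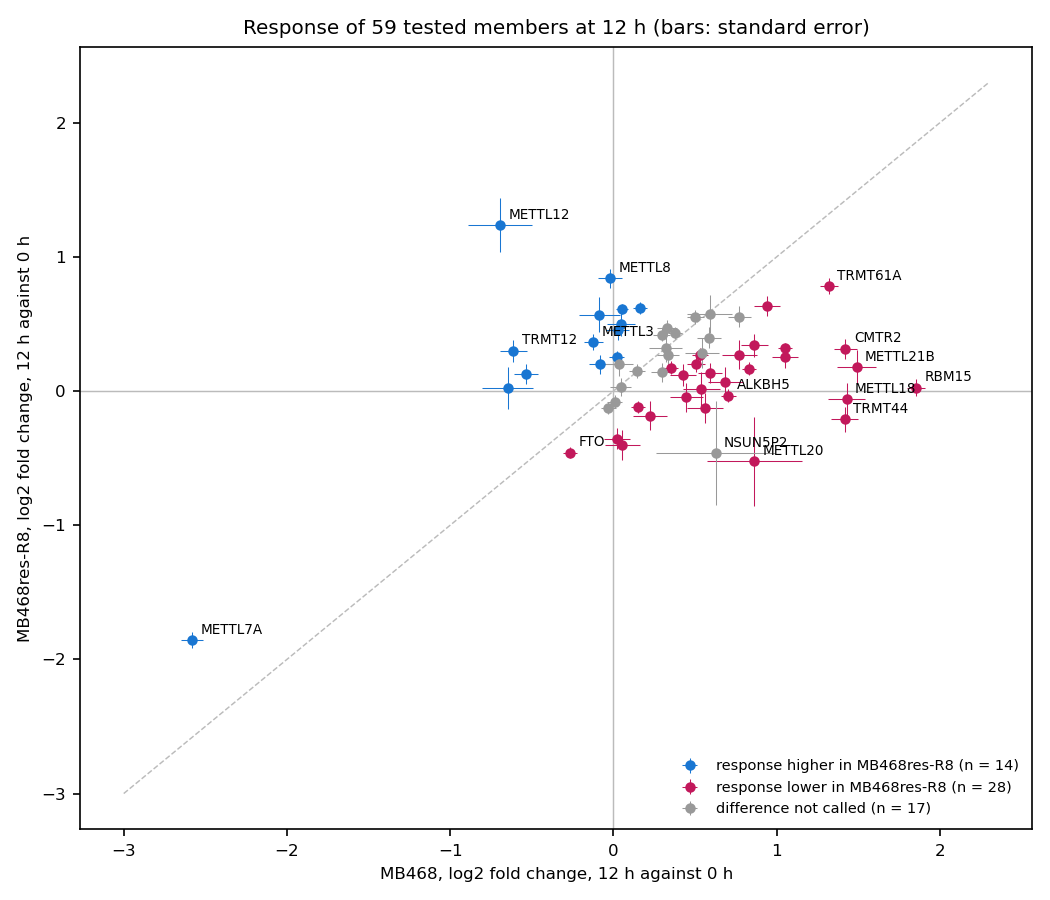
Log2 fold change at 12 h against 0 h in MB468 (x axis) and MB468res-R8 (y axis) for the 59 tested genes, with standard errors, coloured by the test of the difference between the lines; the dashed line marks equal responses. RBM15 lies at 1.85 and 0.03, METTL7A at -2.58 and -1.86, and METTL12 at -0.69 and 1.24.

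Before the switch, levels per exonic length differed widely between the genes. In CPM per kilobase of exons at 0 h, TRMT112 had 83.4 in MB468 and 78.9 in MB468res-R8, NSUN2 57.1 and 51.1, FTSJ1 (which methylates riboses in the tRNA anticodon loop) 35.7 and 35.4, and ALKBH5 27.6 and 30.3. On this scale the writers ranged in MB468 from 3.69 for METTL14 to 17.4 for WTAP and in MB468res-R8 from 4.05 to 11.6. At the low end METTL20 had 0.118 and 0.128. Besides WTAP, ZC3H13, METTL4 and METTL12, TRMT2A (5-methyluridine in tRNA) was lower in MB468res-R8 without overlap, at 776, 794 and 760 normalized counts against 1053, 1108 and 1065 in MB468 (-0.47 ± 0.06, adjusted p = 9.22e-09). CMTR2 was also lower (-0.43 ± 0.07, adjusted p = 4.07e-06), as was RBM15 (-0.19 ± 0.06, adjusted p = 0.00651, but 0.0515 and -0.16 without MB468res-R8 0 h replicate 1). With spike-in scaling 2 of the 59 were called higher and 32 lower in MB468res-R8 at 0 h, beside 7.76% and 44.1% of all genes, and the higher level of METTL23 (0.35 ± 0.08) became 0.04 and that of NSUN6 (0.32 ± 0.11) 0.02, neither called. NSUN6 was also not called without MB468 0 h replicate 1 or MB468res-R8 0 h replicate 2 (0.28 each).

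Other methyltransferases and cofactors outside the name rule were counted in a list of 32 related genes, of which 19 rose and 7 fell at 12 h in MB468 (36.1% and 34.7% of all genes) and 20 rose and 3 fell in MB468res-R8 (30.2% and 31.1%). RBM15B, the paralog of RBM15 in the writer complex, rose by 1.25 ± 0.04 in MB468 (adjusted p = 3.82e-26) and the difference between the lines was -0.998 (adjusted p = 2.69e-17). Unlike RBM15 it was lower in MB468 at 2 h (-0.20, adjusted p = 0.00119). WDR4, the partner of METTL1, rose by 1.25 ± 0.05 in MB468, and by 0.60 for MB468res-R8 (adjusted p = 3.01e-14), where METTL1 was at 0.05 and 0.50. TYW3, which acts in the same wybutosine pathway as TRMT12, rose by 0.20 in MB468 and 1.04 ± 0.06 in MB468res-R8, a difference of 0.84 (adjusted p = 9.44e-12). The 2 other demethylases listed, ALKBH1 and ALKBH3, rose in MB468 by 0.62 ± 0.09 and 0.96 ± 0.06 and were at 0.34 ± 0.10 and 0.11 ± 0.07 in MB468res-R8.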

How the data were processed

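Poly(A) RNA of MB468 and MB468res-R8 cells was sequenced with ERCC spike-ins as single-end reads from an unstranded kit. The submitters' processing notes name HISAT2 2.1.0, Subread 1.5.3 and GRCh38. The counts deposited by the authors are unnormalized reads per gene. The authors' table of DESeq2-normalized values and their table of fold changes and p-values from their own comparison were not used.

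The 24 libraries in 8 groups entered 1 model in edgeR 4.0.16 under R 4.3.3 (filterByExpr, minimum count 10 and total 15; TMM; robust glmQLFit with 1 mean per group), without the 92 spike-ins. The 10 comparisons were each time against 0 h per line, MB468res-R8 against MB468 at 0 h, and the difference between the lines in response at 0.5, 2 and 12 h (MB468res-R8 minus MB468). The code was tested on simulated data. DESeq2 1.42.0 was an alternative, as were spike-in totals, other filters, fits to the compared groups, a replicate block and leaving out each library. Lengths and overlaps come from GENCODE, whose release need not be the authors'. Intervals are 95%.

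Genes named are the writers, demethylases and cap enzymes, and per comparison the called genes with at least 1 CPM and groups without overlap that changed most (5 per direction at 0 h, 12 h and for the 12 h difference, otherwise 3). Others, in lists of calls, with shared calls or partner roles, were named after their values were seen. The genes and lists were chosen with earlier results of these data known.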

Additional observations from a re-analysis of the deposited data

Results flagged for a closer look

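The response to Met-Hcy+ medium differed between the lines, by the test of the difference itself in edgeR's quasi-likelihood model (3 libraries a group), for these named genes, given on the log2 scale as MB468res-R8 minus MB468. At 2 h the difference was 1.43 for METTL12, 0.71 for TRMT12, 0.38 for TRMT10C and -0.71 for RBM15. The TRMT10C difference was not called without MB468 2 h replicate 1 (0.32, adjusted p = 0.0534) or MB468res-R8 2 h replicate 1 (0.34, adjusted p = 0.0545). With spike-in scaling the RBM15 difference at 2 h was -0.35 and not called (adjusted p = 0.154). At 12 h it was 1.93 for METTL12, 0.91 for TRMT12, 0.86 for METTL8, 0.73 for METTL7A and 0.67 for METTL25, and -1.83 for RBM15, -1.63 for TRMT44, -1.49 for METTL18, -1.31 for METTL21B and -1.10 for CMTR2. METTL7A fell and CMTR2 rose in both lines, by different amounts, and METTL12 and TRMT12 were called in opposite directions. Groups of 3 libraries were not examined for outlying samples.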

How the results depend on the processing

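The number of the 59 genes called stayed within 1.5 times the main count for all 10 comparisons with the size factors and the Wald test of DESeq2, with no filter on low counts or one of 10 counts per library, with fits to the compared groups and with the replicate block. Spike-in totals as library sizes gave 14, 43 and 26 called genes in MB468 at 0.5, 2 and 12 h (22, 10 and 43 with TMM), 6, 0 and 22 in MB468res-R8 (20, 1 and 40), and 22 for the 12 h difference (42). Called values changed sign with this scaling for ALKBH5 (-0.072) in MB468 at 0.5 h, for METTL5 (-0.19), METTL6 (-0.17), RNMT (-0.22) and WTAP (-0.23) in MB468 at 2 h, for TRMT112 (-0.084) in MB468 at 12 h, for ALKBH5 (-0.18) and NSUN5 (-0.093) at 0 h, and for FTO (0.074) in the 12 h difference. The cause was not tested. Leaving out each library in turn gave 14 to 21, 6 to 9 and 42 to 44 called genes in MB468 at 0.5, 2 and 12 h, 16 to 20, 0 to 1 and 36 to 41 in MB468res-R8, 22 to 25 at 0 h, and 0 to 1, 4 to 5 and 37 to 43 for the differences. Counts more than 1.5 times below those with all libraries came without MB468 0 h replicate 2 (14 at 0.5 h) and MB468 2 h replicate 1 (6 at 2 h), and the 0 without MB468res-R8 0 h replicate 1 or 2 or 2 h replicate 1 or 2, where TRMT61A was at 0.20 to 0.21. The 1 call for the 0.5 h difference came without MB468 0.5 h replicate 1. Of 99 called values of named genes, 21 lost the call in at least 1 of these fits.

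The replicate number as a block gave 9 higher and 12 lower, 5 and 5, and 37 and 6 in MB468, 8 and 12, 1 and 0, and 33 and 7 in MB468res-R8, 8 and 17 at 0 h, and 0 and 0, 3 and 1, and 14 and 28 for the differences. Same-numbered libraries did not deviate together in every pair of any comparison (mean correlations of -0.145 to 0.277), so the numbers were not taken as pairing. METTL20 and NSUN5P2, at no more than 43.4 and 29.1 normalized counts in any library, are limited by depth.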
